A study of Mus musculus with 2 samples.

Results

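A set of 9 centromere genes was followed along the cell cycle of mouse neural progenitors: *Cenpa*, *Hjurp*, *Cenpf*, *Cenpe*, *Cenph*, *Cenpk*, *Cenpm*, *Cenpn* and *Cenpw*. They were chosen by symbol, through the Ensembl identifiers of the expression table, and all 9 are among its 10666 genes. The cells come from 2 replicate cultures of neurospheres, the floating balls that neural stem cells and their progeny form in suspension. For both, the source was dorsal telencephalon from C57BL/6 embryos, wild type, at embryonic day 14.5, the medium held EGF and bFGF at 10 ng/ml each, and no treatment or genotype separates them. Droplet-based single-cell RNA-seq gave 5748 cells in culture 1 (median 19477 UMIs per cell) and 7057 cells in culture 2 (median 14637 UMIs), and 48 cell barcodes occur in both libraries.

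The centromere is the chromosomal site on which the kinetochore, the machine that attaches chromosomes to the spindle, is built. It is marked by nucleosomes that carry CENP-A, a variant of histone H3. In mammals new CENP-A is placed there by the chaperone HJURP after mitosis, in early G1, and not during replication as for canonical histones. On CENP-A chromatin sits the constitutive centromere-associated network (CCAN), which stays on the centromere through the cycle, and CENP-F and the kinesin CENP-E join its outer side in G2 and mitosis. The comparison asked here is whether the transcripts of *Cenpa* and of its loading factor *Hjurp* follow the timing of the other CENP genes.

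Position in the cycle is the angle that the authors deposited for each cell, from 0 to 2π. The arc from 1.75π through 0 to 0.25π held mostly cells that the deposited Seurat stages call G1, 95.9% of 2459 cells in culture 1 and 95.4% of 3991 cells in culture 2. Cells from 0.5π to 1π were mainly called S (76.4% of 1701 and 81.1% of 1070 cells). From 1π to 1.25π nearly all were called G2M (98.4% of 1064 and 99.1% of 1120 cells). The arc from 1.25π to 1.75π was thinly filled, with 149 cells in culture 1 and 468 in culture 2, of which 61.7% and 77.6% were called G2M and most others G1. As a check of the label, the progenitor markers *Fabp7* and *Vim* were detected in at least 99.2% of the cells of each culture, *Slc1a3* in 92.1% and 94.0% and *Nes* in 93.3% and 89.8%. *Pax6*, a marker of dorsal progenitors, was detected in 21.1% and 23.1% and the oligodendrocyte lineage gene *Olig2* in 97.3% and 91.9%, and the neuronal marker *Dcx* was in 7.34% and 1.56%. The oligodendrocyte progenitor markers *Pdgfra* (8.77% and 1.81%) and *Sox10* (4.26% and 0.751%) were rare, and *Cspg4* was in 11.8% and 13.7%. Other neuronal markers differed from *Dcx*, with *Elavl4* in 32.6% and 22.9% and *Rbfox3* in 3.78% and 4.31%. The progenitor marker *Hes1* was in only 44.5% and 50.5%. Of the astrocyte markers, *Aldh1l1* was in 43.2% and 28.8% and *S100b* in 18.6% and 6.65%. The remaining listed markers are not in the table.

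Transcription of many G2 and mitosis genes in mammals is timed by the cell-cycle homology region, a short element of the letters TTTGAA or TTCGAA near the start site, often with CCAAT boxes upstream, while E2F elements are typical of genes of G1/S. The promoter windows of RefSeq (build GRCm38.p6, 250 bases before to 50 after each start) were searched on both strands for TTTGAA and for TTCGAA, for CCAAT, and for the E2F-type letters TTCCCGC and also TTGGCGC. All 9 genes had a window, *Cenpk* 3 of them. Every one of the 11 windows held CCAAT, against 37.4% of all 32851 windows of the same length. TTTGAA or TTCGAA was found in 6 of the 11 windows, for 6 of the 9 genes, against 19.2% of all windows. TTCCCGC was found in 4 of the 11 windows, for 4 of the 9 genes (*Cenph*, *Cenpk*, *Cenpm*, *Cenpn*), against 4.60% of all windows. TTGGCGC was found in none of the 11 windows and in 2.45% of all. A match is a description of letters and not a binding site, and the shares over all windows were not matched for base composition.

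The 6 promoters that hold TTTGAA or TTCGAA are shown from 120 bases before the start through base 30 after it, in the direction of the gene, with every match of the 5 searched motifs in capitals on either strand (ATTGG is CCAAT on the other strand, TTCAAA is TTTGAA and GCGGGAA is TTCCCGC). They show where *Cenpa* and *Hjurp*, whose transcripts differ in timing below, are alike in these letters and where the CCAN genes differ from them. *Cenpa* lies at chr5:30666766-30666915 (+ strand), *Hjurp* at chr1:88277550-88277699 (- strand), *Cenpf* at chr1:189688057-189688206 (- strand), *Cenpw* at chr10:30200511-30200660 (- strand), *Cenpn* at chr8:116921620-116921769 (+ strand) and *Cenpm* at chr15:82244307-82244456 (- strand).
Cenpa: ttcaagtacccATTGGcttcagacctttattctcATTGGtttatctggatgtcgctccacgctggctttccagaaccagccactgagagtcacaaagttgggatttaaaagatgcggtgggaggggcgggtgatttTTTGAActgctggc
Hjurp: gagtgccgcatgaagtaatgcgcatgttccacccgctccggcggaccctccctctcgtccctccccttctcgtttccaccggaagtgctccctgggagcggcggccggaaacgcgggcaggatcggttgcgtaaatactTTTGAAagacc
Cenpf: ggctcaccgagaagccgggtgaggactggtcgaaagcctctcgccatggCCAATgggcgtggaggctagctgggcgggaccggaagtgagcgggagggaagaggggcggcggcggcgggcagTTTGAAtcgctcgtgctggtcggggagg
Cenpw: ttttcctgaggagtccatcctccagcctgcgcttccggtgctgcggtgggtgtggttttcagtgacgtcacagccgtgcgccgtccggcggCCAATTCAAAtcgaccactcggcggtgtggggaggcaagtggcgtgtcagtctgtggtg
Cenpn: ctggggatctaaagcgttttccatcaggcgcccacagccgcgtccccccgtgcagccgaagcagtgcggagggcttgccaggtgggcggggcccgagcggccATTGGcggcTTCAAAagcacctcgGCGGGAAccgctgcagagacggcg
Cenpm: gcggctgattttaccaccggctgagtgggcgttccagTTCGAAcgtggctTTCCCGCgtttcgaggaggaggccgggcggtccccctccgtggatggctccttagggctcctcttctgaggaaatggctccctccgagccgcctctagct

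In *Cenpa*, *Hjurp* and *Cenpf* the TTTGAA begins just past the RefSeq start, at base 17, 20 and 3. The GENCODE gene starts of *Cenpa* (30666777), *Hjurp* (88277633), *Cenpm* (82244748), *Cenpn* (116921730), *Cenpw* (30200560) and *Cenpe* (135212537) lie upstream of the RefSeq ones. The placements given here for these genes therefore depend on the start used. For *Cenpm* the whole searched window lies inside the GENCODE gene. *Cenpa* has CCAAT letters at -109 and -86 and *Hjurp* at -182, outside the stretch shown. In *Cenpw* the CCAAT at -29 and the TTTGAA on the other strand share a base at -25. *Cenpn* has all 3 kinds of letters within a short stretch around its start, with TTTGAA at -9 and TTCCCGC at 7, both on the other strand. In *Cenpm* TTCGAA at -83 stands next to TTCCCGC at -70. *Cenpe*, which has the narrowest peak in G2/M of the 9, holds CCAAT at -12 and none of the other 4 motifs in its window.

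All 9 genes varied along the cycle. The share of the variance of log2(value + 1) that 2 harmonics of the position explain, written R², was at least 0.05 in both cultures for 9 of 9 genes, while 4.01% of all 10666 genes reached this (428 genes). Cells are not replicates and there is 1 condition, so no test was run, and values are given for each culture with the SD over 2 cultures. The lower R² of the 2 cultures was 0.713 for *Cenpf*, 0.702 for *Cenpa* and 0.609 for *Cenpe*, which rank 5, 6 and 12 among all genes. It was 0.357 for *Cenpm* and 0.243 for *Hjurp*, and 0.149 to 0.202 for *Cenpk*, *Cenph*, *Cenpn* and *Cenpw*. The median was 0.243 over the 9 genes and 0.00183 over all genes. The deposited position was made from cell-cycle genes of the same cells, which may include these 9. With a position rebuilt within each culture from 500 other cell-cycle genes, leaving out all 36 centromere genes considered here, all 9 still passed, and the rebuilt position had a circular correlation with the deposited one of 0.930 in culture 1 and 0.928 in culture 2.

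*Cenpa* was the last of the 9 genes to rise, and it went down more slowly after its maximum than *Hjurp*, *Cenpf* and *Cenpe*. In culture 1 its mean deposited value, a normalised signal on a linear scale, was 0.227 at 0 to 0.125π, 0.628 at 0.625π to 0.75π and 2.57 at 0.875π to 1π, and then 11.4 at 1.125π to 1.25π, which is 50.1-fold its lowest class. In culture 2 the same classes gave 0.331, 0.690, 2.19 and 8.21, a 24.8-fold range. From there *Cenpa* fell through the arc to 1.75π, to 80.7%, 58.2%, 46.3% and 37.8% of its highest class in culture 1 and to 86.1%, 76.6%, 67.9% and 56.1% in culture 2. The most frequent value above 0 differs between genes and cultures (1.09 and 0.97 for *Cenpa*, 0.41 and 0.65 for *Hjurp*, with the depth of each cell put back), so folds and shares within a culture are compared and not levels between cultures or genes. *Cenpa* was detected in 99.7% of 360 cells and 99.8% of 556 cells at 1.125π to 1.25π. At 1.875π to 2π, where most G1 cells lie, it was detected in 15.9% of 1700 cells (exact 95% binomial interval 14.2 to 17.8) and 22.2% of 2889 cells (20.7 to 23.7). Such intervals cover counting error only, and how much free RNA in the droplets adds to these shares was not tested.

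*Hjurp*, the gene of the CENP-A chaperone, rose early and fell early. In culture 1 its mean value was 0.222 at 0 to 0.125π, 0.896 at 0.625π to 0.75π, 1.35 at 1π to 1.125π and 0.303 at 1.25π to 1.375π, and in culture 2 it was 0.319, 1.24, 1.75 and 0.334. At 0.625π to 0.75π, in S, *Hjurp* was thus at 66.4% and 70.7% of its highest class, where *Cenpa* was at 5.52% and 8.41%. At 1.375π to 1.5π the order was the opposite, with *Hjurp* at 18.0% and 8.66% and *Cenpa* at 58.2% and 76.6%. Over the 16 classes the mean log2 profiles of *Cenpa* and *Hjurp* had a Pearson r of 0.025 in culture 1 and -0.055 in culture 2, the smallest in size among all pairs of the 9 genes in each culture. This is a description over classes that share the same libraries, and each class counts equally whatever its number of cells. Cell by cell, the correlation of log2(value + 1) between *Cenpa* and *Hjurp* was positive, 0.294 in culture 1 and 0.238 in culture 2. It was not the smallest of the pairs, since *Cenpa* and *Cenpk* had 0.200 and 0.195.

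**Figure D1:**
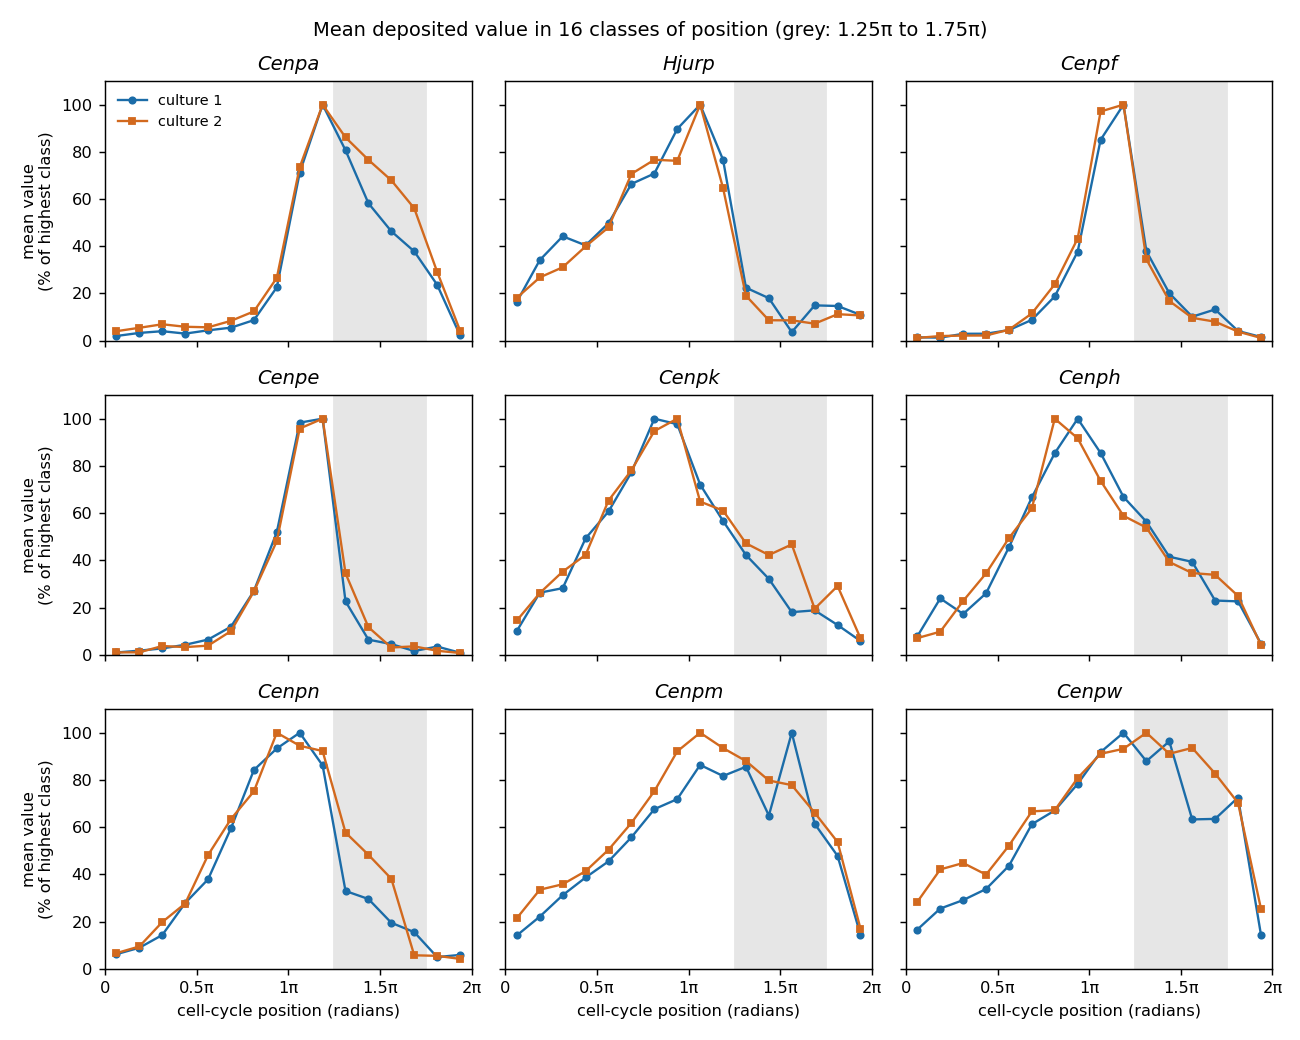
Mean deposited value of each gene in 16 equal classes of the cell-cycle position (x axis, radians), as percent of the gene's highest class in the same culture (y axis), with blue circles for culture 1 and orange squares for culture 2. In the grey arc from 1.25π to 1.75π *Hjurp*, *Cenpf* and *Cenpe* are low, *Cenpa* goes down class by class, ending at 37.8% (culture 1) and 56.1% (culture 2), and *Cenpm* and *Cenpw* lie above *Cenpa*; a class in this arc holds 25 to 53 cells in culture 1.

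Periodic loess lines put numbers on this order. The maximum of *Cenpa* lay at 1.235π and 1.265π (cultures 1 and 2), after the median maximum of the 7 other CENP genes at 1.08π and 1.04π. The difference was 0.19π ± 0.0495 (SD, n = 2) and had the same sign in both cultures under each smoothing, scale and position tried. It shrank to 0.0675π with a loess span of 0.05 and to 0.116π with class means, so the size of the lag depends on the smoothing. The lag is against the median and does not set *Cenpa* apart from every CENP gene. *Cenpw* had its maximum close by, at 1.195π and 1.225π, but this depends on the setting. With depth put back *Cenpw* lay further off, at 1.08π and 1.05π against 1.165π and 1.215π for *Cenpa*. With log2(value + 0.1) the *Cenpw* maximum was at 1.155π and 1.135π. On linear values in culture 2 *Cenpw* came after *Cenpa* (1.295π against 1.275π). With class means, *Cenpm* in culture 1 (1.56π) and *Cenpw* in culture 2 (1.28π) came after *Cenpa* (1.20π in each). The maximum of *Hjurp* lay at 1.055π and 1.01π, close to the other CENP genes, with a difference from their median of -0.0275π ± 0.00354 (SD, n = 2). *Hjurp* was earlier than that median in both cultures under every setting, by 0.233π with a span of 0.3.

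The position at which a line passes midway between its minimum and maximum separates the genes more clearly than the maximum. On the way up, *Hjurp* and the 5 CCAN genes passed it between 0.470π and 0.628π, where most cells were called S. Under all settings tried they passed it between 0.268π (*Hjurp* in culture 1, with log2(value + 0.1)) and 0.656π. *Cenpf* and *Cenpe* passed it between 0.850π and 0.882π, and *Cenpa* at 0.972π and 0.950π. *Cenpa* was last and *Cenpf* and *Cenpe* next to last in both cultures under every setting tried. On the way down the genes fell into other groups. *Cenpk*, *Hjurp*, *Cenph*, *Cenpe*, *Cenpn* and *Cenpf* passed the midpoint between 1.20π and 1.42π, while *Cenpa* did so at 1.79π and 1.81π, *Cenpm* at 1.83π and 1.85π and *Cenpw* at 1.86π and 1.87π. *Cenpa* fell 0.441π ± 0.00566 (SD, n = 2) after the median of the 7 other CENP genes. This lag was 0.274π on linear values and 0.135π with a span of 0.3, a window that takes in 90% of the cells of a culture. *Cenpa*, *Cenpm* and *Cenpw* were the last 3 to fall in both cultures under every setting.

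**Figure D2:**
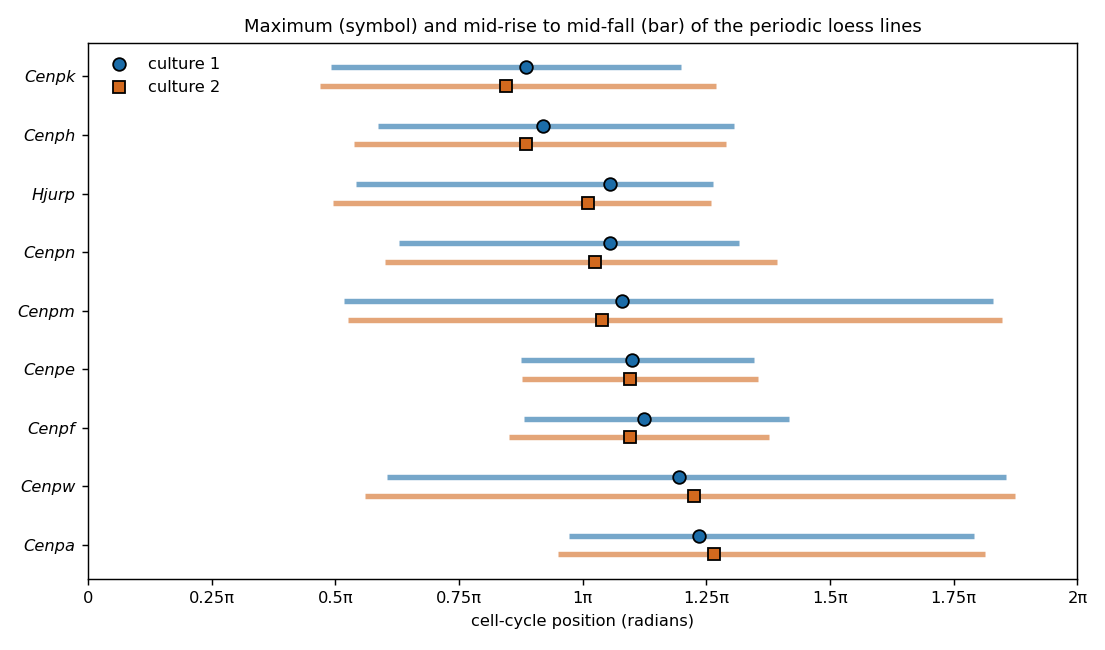
For each gene and culture the symbol marks the maximum of the periodic loess line along the cell-cycle position (x axis, radians) and the bar runs from the position midway up to the position midway down. Genes are ordered by their mean maximum from *Cenpk* (0.865π) to *Cenpa* (1.25π); the bars of *Cenpa*, *Cenpm* and *Cenpw* end after 1.75π in both cultures and those of the other 6 genes before 1.5π.

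The outer kinetochore genes *Cenpf*, which encodes a large coiled-coil protein that binds microtubules, and *Cenpe*, which encodes a kinesin motor for chromosome congression, had the sharpest peaks. *Cenpf* went from a mean value of 0.109 at 0.125π to 0.25π to 8.49 at 1.125π to 1.25π in culture 1, a 77.5-fold range, and from 0.0941 to 8.03 in culture 2, an 85.3-fold range. *Cenpe* rose from a lowest class of 0.0313 to 3.69 in culture 1, a 118-fold range. The same values were 0.0278 and 3.70 in culture 2, a 133-fold range. In its lowest class *Cenpe* was detected in only 56 of 1700 cells in culture 1 and 57 of 2889 in culture 2. The maxima of *Cenpf* (1.125π and 1.095π) and *Cenpe* (1.10π and 1.095π) were within the spread between cultures of each other. Their mean maximum came 0.0638π ± 0.00884 (SD, n = 2) after the median of the 5 CCAN genes, and 0.168π after it with a span of 0.3. Between the midpoints their lines were 0.470π to 0.536π wide, the narrowest of the 9 genes, against 0.687π to 0.799π for *Cenph*, *Cenpk*, *Cenpn* and *Hjurp* and 0.818π or more for *Cenpa*, *Cenpm* and *Cenpw*. *Cenpe* and *Cenpf* also had the closest values cell by cell: the correlation of log2(value + 1) left after position and total UMIs was 0.270 in culture 1 and 0.264 in culture 2, over 5748 and 7057 cells. For *Cenpa* and *Hjurp* it was 0.015 and 0.024.

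The 5 CCAN genes did not share a timing. The proteins of *Cenpk*, *Cenph* and *Cenpm* belong to the same part of the CCAN, but only *Cenpk* and *Cenph* peaked early, with maxima at 0.885π and 0.845π for *Cenpk* and 0.920π and 0.885π for *Cenph*. *Cenpk* was highest at 0.923 in culture 1 (0.75π to 0.875π) and 0.902 in culture 2 (0.875π to 1π), 17.2-fold and 14.3-fold above its lowest class. *Cenph* was highest at 0.855 and 0.935, a 21.1-fold and 23.9-fold range. *Cenpk* and *Cenph* differ by less than 0.05π in each culture, about the difference between the cultures for 1 gene. The *Cenpk* gene overlaps *Ppwd1* on the opposite strand, and it was not tested whether reads of *Ppwd1* enter its values.

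*Cenpn*, whose protein reads CENP-A nucleosomes, had its maximum at 1.055π and 1.025π and ranged 20.2-fold and 23.9-fold between its highest and lowest classes. In its lowest class *Cenpn* was detected in only 4 of 89 cells in culture 1 and 63 of 2889 in culture 2. *Cenpm* had its maximum later than *Cenpk* and *Cenph*, at 1.08π and 1.04π, and *Cenpw*, a histone-fold protein of the CCAN, at 1.195π and 1.225π. These last 2 had the smallest folds between their highest and lowest classes. Their loess lines of log2(value + 1) were not the flattest, with a mean range of 1.51 for *Cenpm* and 1.19 for *Cenpw*. The range was 0.606 for *Cenpn*, 0.704 for *Cenph* and 0.715 for *Cenpk*. *Cenpm* ranged 7.07-fold in culture 1 and 5.89-fold in culture 2, and *Cenpw* 6.89-fold and 3.92-fold. They were also the most widely detected, in 61.5% and 57.3% of all cells for *Cenpm* and 56.6% and 52.8% for *Cenpw*, against 27.6% and 15.7% for *Cenpn*. In culture 1 the highest class of *Cenpm* was 1.5π to 1.625π with 25 cells (mean 3.40), and its highest class in culture 2 was 1π to 1.125π with 564 cells (mean 3.14).

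What was left of each transcript on the thinly filled arc, where most cells were still called G2M, was measured as the mean value at 1.25π to 1.75π over that at 1π to 1.25π, a measure chosen after the profiles had been seen. *Cenpw* kept 92.3% ± 12.1 (SD, n = 2), *Cenpm* 86.6% ± 6.40 and *Cenpa* 79.1% ± 8.93. *Cenph* kept 58.4% ± 8.40, *Cenpk* 53.9% ± 13.0 and *Cenpn* 34.9% ± 11.7. *Cenpf* kept 23.0% ± 3.56, *Hjurp* 16.3% ± 2.10 and *Cenpe* 14.0% ± 4.60. The first 3 genes overlap each other between cultures, as do *Cenph* and *Cenpk*, and *Hjurp* and *Cenpe*, but the lowest value of the first 3 (*Cenpa* in culture 1, 72.7%) is above the highest value of the other 6 (*Cenph* in culture 2, 64.4%). Over all 428 genes that vary with position the median left was 48.9% (quartiles 25.1 and 74.5). Of the 159 of them with their highest class between 1π and 1.25π in both cultures, which include *Cenpa*, *Hjurp*, *Cenpf* and *Cenpe*, the median was 35.8% (quartiles 17.7 and 65.6). *Cenpa* thus lies above the upper quartile of that group in both cultures. *Cenpe* lies below the lower quartile in both, and *Hjurp* lies about at it, with 17.8% in culture 1 and 14.8% in culture 2.

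In the arc from 1.25π to 1.75π *Cenpa* was detected in 147 of 149 cells of culture 1 (98.7%, interval 95.2 to 99.8) and in 97.9% of 468 cells of culture 2 (96.1 to 99.0). *Hjurp* was detected there in 23 of the 149 cells (15.4%, 10.0 to 22.3) and in 13.7% of the 468 (10.7 to 17.1), against 72.5% of 1064 and 65.1% of 1120 cells at 1π to 1.25π. Cells of the late arc have less RNA, with a median of 14401 UMIs against 20527 at 1π to 1.25π in culture 1 and 12091 against 17813 in culture 2. With the depth of each cell put back into the values, *Cenpa* kept 54.0%, *Cenpm* 58.0% and *Cenpw* 64.2%, and *Hjurp* 11.0%, *Cenpe* 9.50% and *Cenpf* 14.5%. With the position rebuilt without centromere genes, *Cenpa* kept 77.7% and *Hjurp* 20.2%.

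**Figure D3:**
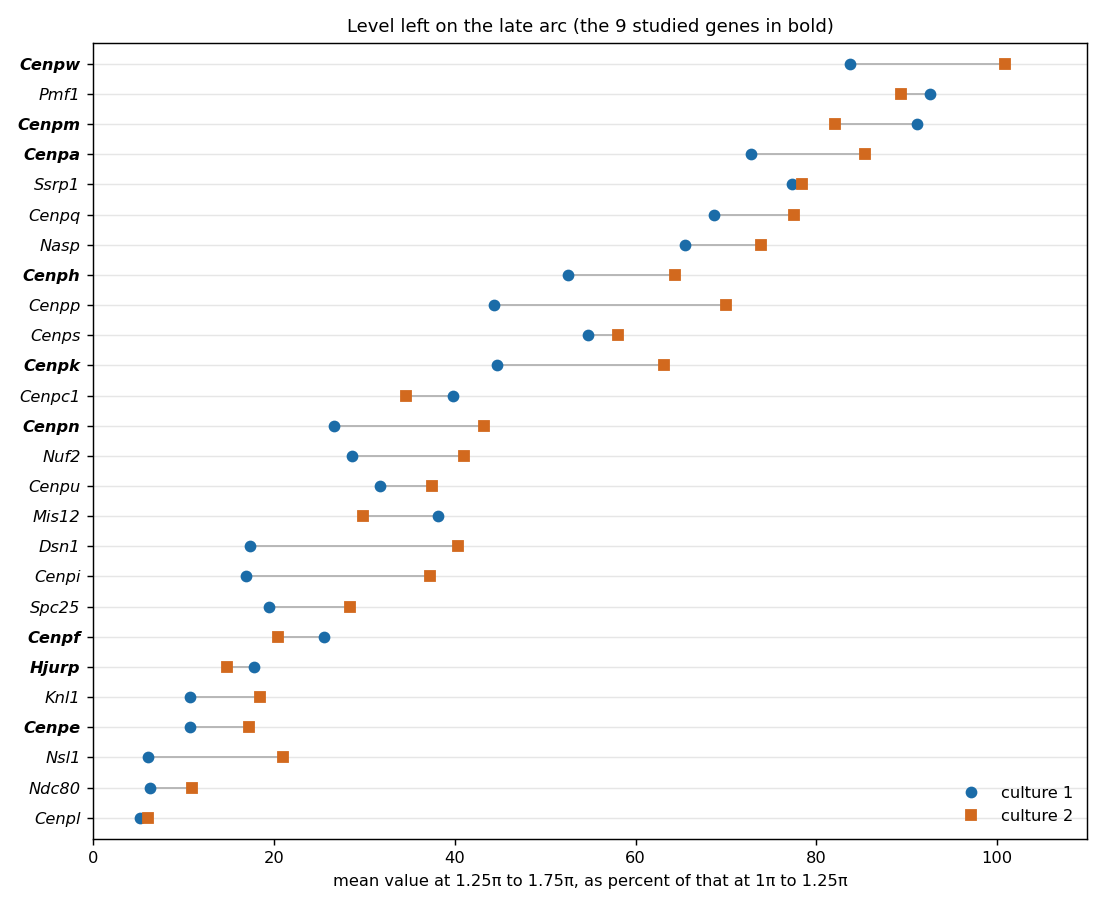
Mean value at 1.25π to 1.75π as percent of that at 1π to 1.25π (x axis) for the 9 genes (bold) and other centromere genes that vary with position, with blue circles for culture 1, orange squares for culture 2 and a grey line between them. *Cenpw*, *Cenpm* and *Cenpa* sit at 72.7% and above in both cultures, and *Hjurp* and *Cenpe* at or below 17.8%.

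Of the other centromere and kinetochore genes listed, 27 are in the table and 18 of these varied with position by the same threshold, against 4.01% of all 10666 genes. The count was 16 with the rebuilt position, and 13 or 24 with an R² of at least 0.1 or 0.02. *Nasp* and *Ssrp1*, which encode general histone chaperones, kept 69.7% and 77.9%, with maxima at 0.755π and 0.985π. Of the outer kinetochore genes, *Spc25* (0.538), *Knl1* (0.380), *Nuf2* (0.329), *Pmf1* (0.213), *Ndc80* (0.203), *Mis12* (0.0781), *Dsn1* (0.0506) and *Nsl1* (0.0506) passed by the lower R² given in brackets. *Ndc80* kept 8.61%, *Nsl1* 13.5%, *Knl1* 14.6% and *Spc25* 23.9%, and *Pmf1*, a subunit of the MIS12 complex, kept 91.0% ± 2.30 (SD, n = 2), in the range of *Cenpm* and *Cenpw*. The other CCAN genes that passed were *Cenpq* (0.313), *Cenpl* (0.163), *Cenpu* (0.133), *Cenps* (0.124), *Cenpp* (0.105), *Cenpi* (0.0927) and *Cenpc1* (0.0777). Within these *Cenpq* kept 73.1% and *Cenpl*, the partner of *Cenpn* in binding CENP-A, kept 5.60%. In the late arc *Cenpl* was detected in only 4 of 149 and 10 of 468 cells.

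Genes outside these lists were ranked by how similar their profiles over the 16 classes were to those of *Cenpa*, *Hjurp* and *Cenpk*. By the lower Pearson r of the 2 cultures, the 5 nearest to *Cenpa* were *Ccnb2* (0.985), *Knstrn* (0.980), *Cdkn3* (0.978), *Tacc3* (0.970) and *Ddx39* (0.951). Nearest to *Hjurp* were *Cep192* (0.973), *Pcnt* (0.962), *Gen1* (0.955), *Traip* (0.954) and *Smc2* (0.954). Nearest to *Cenpk* were *Rfc4* (0.969), *Rfc2* (0.968), *Tyms* (0.959), *Rfc5* (0.955) and *Rrm2* (0.955), of which the *Rfc* genes encode subunits of the clamp loader of replication and *Tyms* and *Rrm2* enzymes of deoxynucleotide synthesis.

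The deposited Seurat stages, which do not use the angle but whose G2M list holds *Cenpa*, *Hjurp*, *Cenpe* and *Cenpf*, gave the contrast in coarser form. *Cenpa* had a mean value of 0.427 in G1, 0.839 in S and 7.49 in G2M in culture 1 and of 0.570, 0.764 and 6.40 in culture 2. *Hjurp* had 0.180, 0.774 and 1.21 in culture 1 and 0.214, 0.918 and 1.18 in culture 2. From S to G2M *Cenpa* was therefore several times higher in each culture, while the S mean of *Hjurp* was closer to its G2M mean than to its G1 mean in both.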

How the data were processed

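Per the labels and the study's methods, the authors dissociated neurospheres for a droplet-based 3' kit, quantified spliced counts with alevin (Salmon 1.3.0) against GRCm38, and removed rarely expressed genes and cells with outlying UMI totals, gene numbers, mitochondrial shares or doublet scores; no doublet caller was run here. The deposited expression values are a signal on a linear scale, normalized by the authors to nearly equal totals per cell, and no counts were recovered from them, so no count model was used. The total of UMIs in a cell is a sum of estimated counts, and the position (radians) and stages are other values, all as deposited by the authors. The span of their loess is not given in the sources used here. Every per-sample column was mapped to a culture.

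Symbols and coordinates are from GENCODE vM21 (GRCm38), where the authors used a later release. Within each culture, log2(value + 1) was smoothed by periodic loess on cells tripled over 1 period (degree 2, span 0.1 of the tripled cells, which is 30% of a culture, 401 grid positions), and 2 harmonics gave R² for every gene. Listed centromere names that matched no row have no expression values here (their promoters were searched), and the values of 1 gene that passed are not reported here. Named genes are the 9, the other listed centromere genes whose R² reached 0.05 in each culture, and the 5 genes nearest to *Cenpa*, *Hjurp* and *Cenpk*. The rebuilt position used cyclone and Seurat markers (scran 1.30.0, Seurat 5.3.0, R 4.3.3). Other steps used Python 3.11.15, numpy 2.4.6, pandas 2.3.3 and scipy 1.17.1, and were tested on simulated data. The genes, lists and tests were chosen with earlier results of these data known. Alternatives were other spans, class means, linear values, another pseudocount, depth put back, the rebuilt position, other thresholds and harmonics, a filter on low genes and each culture left out.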

Additional observations from a re-analysis of the deposited data

How the results depend on the processing

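None of the directions named here reversed under an alternative. For timing, values are means of the 2 cultures. The lag of the *Cenpa* maximum behind the median of the 7 other CENP genes, 0.19π, was 0.0675π with a span of 0.05 and 0.116π with class means. The *Hjurp* difference, -0.0275π, was -0.233π with a span of 0.3, -0.0225π with 0.05, -0.0491π with class means, -0.035π on linear values, -0.02π with log2(value + 0.1), -0.0125π with depth put back and -0.0325π with the rebuilt position. The lag of *Cenpf* and *Cenpe* behind the 5 CCAN genes, 0.0638π, was 0.168π, 0.138π and 0.109π with a span of 0.3, a span of 0.05 and class means, 0.08π on linear values and 0.0525π with depth put back. The median CCAN maximum, 1.04π, was 0.988π with a span of 0.05 and 1.01π with class means. The *Cenpw* maximum, 1.21π, was 1.29π and 1.13π with spans of 0.3 and 0.05 and 1.26π on linear values. It was 1.145π with log2(value + 0.1), 1.065π with depth put back and 1.17π with the rebuilt position. The later fall of *Cenpa*, 0.441π, was 0.135π, 0.523π and 0.453π with a span of 0.3, a span of 0.05 and class means, 0.274π on linear values, 0.480π with log2(value + 0.1), 0.450π with depth put back and 0.391π with the rebuilt position. The cause of these shifts was not tested. Leaving 1 of the 2 cultures out returns the value of the other, so it adds nothing to the values per culture. These 4 differences had the same sign in each culture, and the CCAN median was 1.025π to 1.055π. The count of all genes varying with position was 428, and 240 or 890 with an R² of at least 0.1 or 0.02; the 9 genes passed under all of these thresholds. No paired analysis was possible because there is 1 group and no test. The arc from 1.25π to 1.75π held 149 cells in culture 1, and the effect of this number was not tested.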

Other observations

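The stages of the SchwabeCC method split the *Cenpa* signal differently from the angle. In cells that it calls G2.M, *Cenpa* was detected in 60.7% of 547 cells in culture 1 and 73.5% of 665 cells in culture 2, against 99.3% of the 1064 cells of culture 1 at 1π to 1.25π. In cells called M.G1 *Cenpa* had a mean value of 2.57 in culture 1 and 1.95 in culture 2, and *Hjurp* 0.259 and 0.211. In cells called S the means were 1.14 and 0.820 for *Cenpa* and 0.988 and 0.784 for *Hjurp*. No stage was assigned to 2451 and 3151 cells.

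The 28 other centromere genes with a window had 30 windows. Of these windows 15 held CCAAT, 10 held TTTGAA or TTCGAA and 8 held TTCCCGC or TTGGCGC, against 37.4%, 19.2% and 6.81% of all windows. Some of the 28 genes have no expression values here. *Pmf1*, which keeps 91.0% of its level in the late arc, and *Ndc80*, which keeps 8.61%, both hold TTTGAA.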
